A study of Mus musculus with 6 samples.

Results

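The homeobox genes of the 4 mammalian Hox clusters were followed in mouse tibiae together with Pitx1 and Tbx4, the transcription factors that mark the hindlimb. Members were taken by name alone. They were every protein-coding gene whose symbol is Hoxa, Hoxb, Hoxc or Hoxd followed by a number, plus that pair, which gave 41 of the 56748 genes in the deposited tables. There were 39 Hox genes among them, 11 in Hoxa, 10 in Hoxb, 9 in Hoxc and 9 in Hoxd. The samples were tibiae of females aged 12 weeks, 3 of genotype Col1a1+/- and 3 of wild type (WT). Col1a1+/- mice carry 1 altered copy of the type I collagen alpha 1 gene and stand as a model of the mild, type I form of osteogenesis imperfecta. The labels name no strain, no further allele and no treatment for either genotype, and do not say how the Col1a1 allele was made or whether each sample is a separate animal. P-values therefore measure the spread between these samples, which may be technical.

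Hox genes encode DNA-binding homeodomain proteins that give cells along the body axis and along a limb their position. Within a cluster the genes stand in the order in which they are switched on, from paralogue number 1 at the 3′ end to number 13 at the 5′ end, and genes with the same number in different clusters are paralogues of one another. In the mouse hindlimb, group 10 acts mainly on the upper segment, group 11 mainly on the middle segment that holds the tibia, and group 13 on the foot. Pitx1 gives the hindlimb its identity and acts upstream of Tbx4, which is needed for hindlimb outgrowth. Tbx5 is the forelimb counterpart of Tbx4. Mesenchymal cells of the adult skeleton keep much of the positional Hox pattern that was laid down in the embryo.

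The libraries held 26830644 to 32379684 counted reads, and Hox genes took 0.0230% to 0.0246% of them. Levels are given as RPKM, the read count of a gene divided by its exon length in kilobases and by the size of its library, with library sizes scaled by TMM, the trimmed mean of M values. Bone markers were present, with 13 of 13 osteoblast and 12 of 13 osteocyte markers at a mean of 1 RPKM or more. Col1a1, the targeted gene, was at 9317, 8057 and 9081 RPKM in Col1a1+/- tibiae, against 5609, 9347 and 8350 RPKM in WT tibiae, and its log2 fold change of 0.18 (edgeR adjusted p = 0.780) does not check the labels. The ratio of Col1a1 to Col1a2 reads, which no library scaling touches, averaged 0.812 in Col1a1+/- tibiae and 1.28 in WT tibiae, and the exact two-sided permutation p was 0.1, the smallest that 3 against 3 samples allow. Skeletal muscle markers, 24 of 24 of them at 1 RPKM or more, took 2.06%, 3.78% and 1.89% of counts in Col1a1+/- tibiae and 6.08%, 6.06% and 7.63% in WT tibiae. Osteoblast markers took 13.4% to 15.4% in Col1a1+/- tibiae and 7.81% to 11.1% in WT tibiae. Most of these osteoblast counts came from Col1a2 and the targeted gene Col1a1, both of which are on that list. Neutrophil markers, 10 of 10 at 1 RPKM or more, took 0.0997% to 0.165% in Col1a1+/- tibiae and 0.141% to 0.590% in WT tibiae, with WT replicate 1 the highest. That library also stood apart from the other 5 on the second principal component of all tested genes, which held 21.6% of the variance. In such bulk samples fewer cells of a type and less RNA per cell cannot be told apart.

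The hindlimb pair was present in every tibia and its forelimb counterpart was low, at 4 to 36 reads per library. Pitx1 (chromosome 13, 55972864 to 55984005, minus strand; all gene positions are on GRCm39) was at 8.38, 8.93 and 6.53 RPKM in Col1a1+/- tibiae, against 5.50, 4.57 and 5.18 RPKM in WT tibiae. The 3 Col1a1+/- values all lay above the 3 WT values. The log2 fold change of Pitx1 was 0.64 ± 0.15 (SE), with an edgeR adjusted p of 0.0512, just short of the 0.05 threshold over 18514 genes tested. Its adjusted p was below that threshold without WT replicate 1 (edgeR, 0.0289, with 9.26% of all genes called) and by DESeq2 (0.00806). It was so by edgeR also with library totals (0.0452, 7.17% of genes called), with no filter on low counts (0.00989, 4.53%) and with a filter of at least 1 CPM in 3 libraries (0.0491, 5.76%). Over every alternative tried, its adjusted p ranged from 0.00806 to 0.969. Osteoblast markers took the larger share of counts in the genotype with the higher Pitx1 level. Most of that share came from Col1a1 and Col1a2. The libraries highest in Pitx1 within their genotype, Col1a1+/- replicate 2 and WT replicate 1, had the lowest shares of it, 13.4% and 7.81%. Runx2, on the same list, was lowest of its genotype in Col1a1+/- replicate 2 (17.5 RPKM) and highest in WT replicate 1 (14.2 RPKM). The part of these markers in the difference was not tested. When libraries were scaled on osteocyte genes in place of TMM, the log2 fold change of Pitx1 was -0.02. That scaling moved the median of all tested genes to -0.67, so Pitx1 still lay above it.

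Tbx4 (chromosome 11, 85777248 to 85806923, plus strand) was at 1.40, 1.79 and 2.27 RPKM in Col1a1+/- tibiae and at 1.3, 1.31 and 1.24 RPKM in WT tibiae. The groups did not overlap, but Col1a1+/- replicate 1 stood close to the WT libraries. The log2 fold change was 0.50 ± 0.22 (SE), which missed the threshold (edgeR adjusted p = 0.221). It was -0.18 when scaled on osteocyte genes, where the median of all tested genes was -0.67. Tbx5 had 17, 4 and 10 reads in Col1a1+/- tibiae and 12, 36 and 5 reads in WT tibiae, which came to 0.0715 ± 0.0397 RPKM and 0.132 ± 0.129 RPKM (SD, n = 3 each). In every library the level of Tbx4 per kilobase was above that of Tbx5. Pitx1 was the more abundant of the hindlimb pair, and the ratio of Pitx1 to Tbx4 reads averaged 3.61 ± 1.24 (SD, n = 3) in Col1a1+/- tibiae, with 3.09 ± 0.318 (SD, n = 3) in WT tibiae, a difference within the spread (exact permutation p = 0.5).

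Of the 39 Hox genes, 19 reached a mean of 1 RPKM, against a median of 3.24 RPKM over all tested genes. Hoxc was the cluster with the highest summed level. Its 9 genes (chromosome 15, 102829538 to 102945278) added up to 42.2 ± 5.80 RPKM in Col1a1+/- tibiae and 49.4 ± 7.93 RPKM in WT tibiae (SD, n = 3 each). Hoxa (chromosome 6, 52132570 to 52237788) followed with 31.2 ± 1.08 RPKM in Col1a1+/- tibiae and 29.4 ± 4.23 RPKM in WT tibiae. Hoxb (chromosome 11, 96085142 to 96259082) came to 8.71 ± 0.708 RPKM in Col1a1+/- tibiae and 9.47 ± 0.620 RPKM in WT tibiae. Hoxd (chromosome 2, 74498654 to 74595486) came to 5.50 ± 2.64 RPKM in Col1a1+/- tibiae and 7.44 ± 4.25 RPKM in WT tibiae. In every library Hoxc stood above Hoxa and Hoxa above both others, while Hoxb and Hoxd changed places between libraries.

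**Figure D1:**
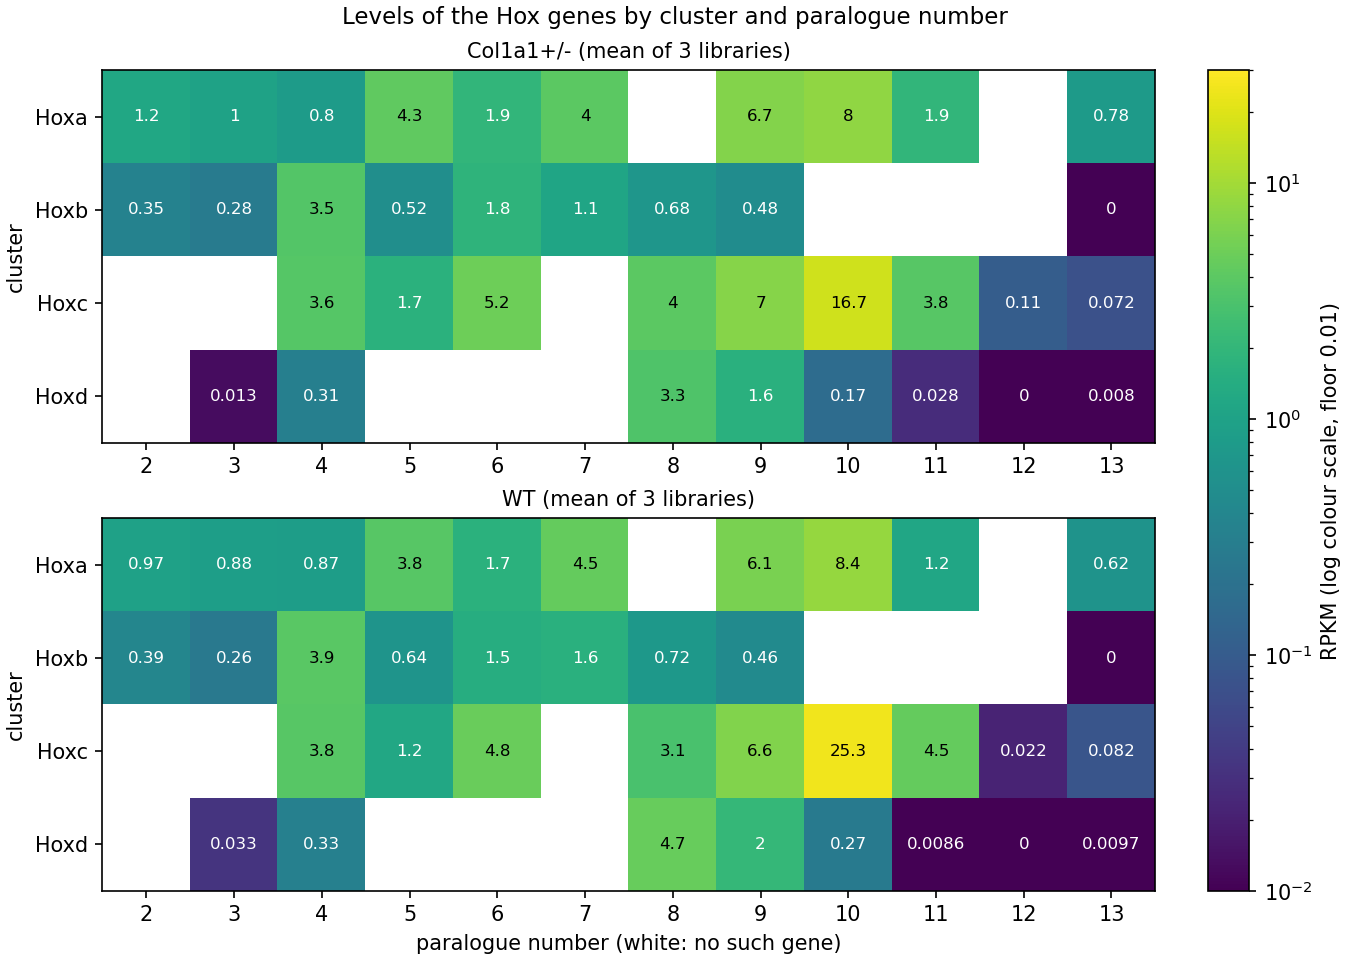
Mean RPKM (log colour scale with a floor of 0.01) of the Hox genes of paralogue numbers 2 to 13 (columns) by cluster (rows), for 3 Col1a1+/- tibiae above and 3 WT tibiae below; white squares have no gene. The highest levels lie in groups 9 and 10 of Hoxa and Hoxc in both genotypes, with Hoxc10 at 16.7 RPKM in Col1a1+/- and 25.3 RPKM in WT tibiae, and the 5′ end of Hoxd is near 0.

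The clusters differed in how many of their genes reached a mean of 1 RPKM. Genes under that level were not all without reads. The filter for testing kept 11 genes in Hoxa, 8 in Hoxb, 7 in Hoxc and 4 in Hoxd. In Hoxc, 7 of 9 genes had a mean of at least 1 RPKM, in Hoxa 7 of 11, in Hoxb 3 of 10 and in Hoxd 2 of 9. Hoxb13 and Hoxd12 had 0 reads in every library. A count of 3 reads, taken as the detection floor, would have been 0.0408 to 0.0493 RPKM per library for Hoxb13 and 0.0355 to 0.0429 RPKM for Hoxd12, and floors cover counting error only. Hoxb1 and Hoxd13 had no more than 3 reads in any library. Hoxd1, Hoxd3, Hoxc12 and Hoxc13 stayed under 10 reads in all 6 libraries. Including Hoxd11, 9 members were too low to be tested between genotypes.

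Within Hoxc, Hoxc10 led with 15.8, 20.2 and 13.9 RPKM in Col1a1+/- tibiae and 19.0, 28.3 and 28.5 RPKM in WT tibiae. Its mean was above that of 88.7% of the genes tested. Hoxc9, next in the cluster, was at 7.71, 7.78 and 5.59 RPKM in Col1a1+/- tibiae and 5.82, 5.90 and 8.13 RPKM in WT tibiae. Hoxc6 was at 5.36, 5.21 and 5.0 RPKM in Col1a1+/- tibiae and 4.09, 5.27 and 4.95 RPKM in WT tibiae. The WT ranges of Hoxc9 and Hoxc6 both took in part of the Col1a1+/- range. Hoxc8, Hoxc4 and Hoxc11 had means between 3.05 and 4.50 RPKM in either genotype and Hoxc5 of 1.67 RPKM in Col1a1+/- and 1.23 RPKM in WT tibiae. On the 5′ side of Hoxc11 the level dropped sharply, with Hoxc12 and Hoxc13 at 0 to 0.137 RPKM per library.

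Hoxa had the same high stretch. Hoxa10 was at 8.11, 8.12 and 7.88 RPKM in Col1a1+/- tibiae and 7.07, 8.27 and 10.01 RPKM in WT tibiae. Hoxa9 was at 6.59, 6.97 and 6.58 RPKM in Col1a1+/- tibiae and 5.45, 6.32 and 6.38 RPKM in WT tibiae. Hoxa7 was at 4.04, 4.18 and 3.90 RPKM in Col1a1+/- tibiae and 3.82, 4.31 and 5.24 RPKM in WT tibiae. Hoxa9 was the steadiest of the tested Hox genes, with a spread within genotypes of 6.29% (coefficient of variation), where the median over the tested members was 19.6% and over all tested genes 16.6%. Hoxa5 followed at 4.27 ± 1.07 RPKM in Col1a1+/- tibiae and 3.79 ± 1.18 RPKM in WT tibiae (SD, n = 3 each), and its order against Hoxa7 was not beyond that spread. On the 3′ side, Hoxa2 to Hoxa4 and Hoxa6 had means of 0.804 to 1.92 RPKM. Hoxa13, a gene of the foot program in the mouse embryo, averaged 0.785 ± 0.429 RPKM in Col1a1+/- tibiae and 0.619 ± 0.215 RPKM in WT tibiae (SD, n = 3 each).

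Hoxb had 3 genes at 1 RPKM or more, among them Hoxb4, known from blood progenitors. Hoxb4 was at 4.26, 3.20 and 2.97 RPKM in Col1a1+/- tibiae and 4.26, 3.32 and 4.06 RPKM in WT tibiae. Hoxb6 was at 2.06, 1.53 and 1.83 RPKM in Col1a1+/- tibiae and 1.40, 1.44 and 1.61 RPKM in WT tibiae. Hoxb7 was at 0.660, 1.45 and 1.21 RPKM in Col1a1+/- tibiae and 0.984, 2.72 and 1.14 RPKM in WT tibiae, with WT replicate 2 standing above the other 5 libraries. The other 7 genes of the cluster ranged from 0 to 0.853 RPKM per library. Blood stem and progenitor markers, of which 4 of 8 reached 1 RPKM and none was at 0, took 0.0159% to 0.0176% of counts in Col1a1+/- tibiae and 0.0146% to 0.0240% in WT tibiae. Their part in the Hoxb levels was not tested.

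**Figure D2:**
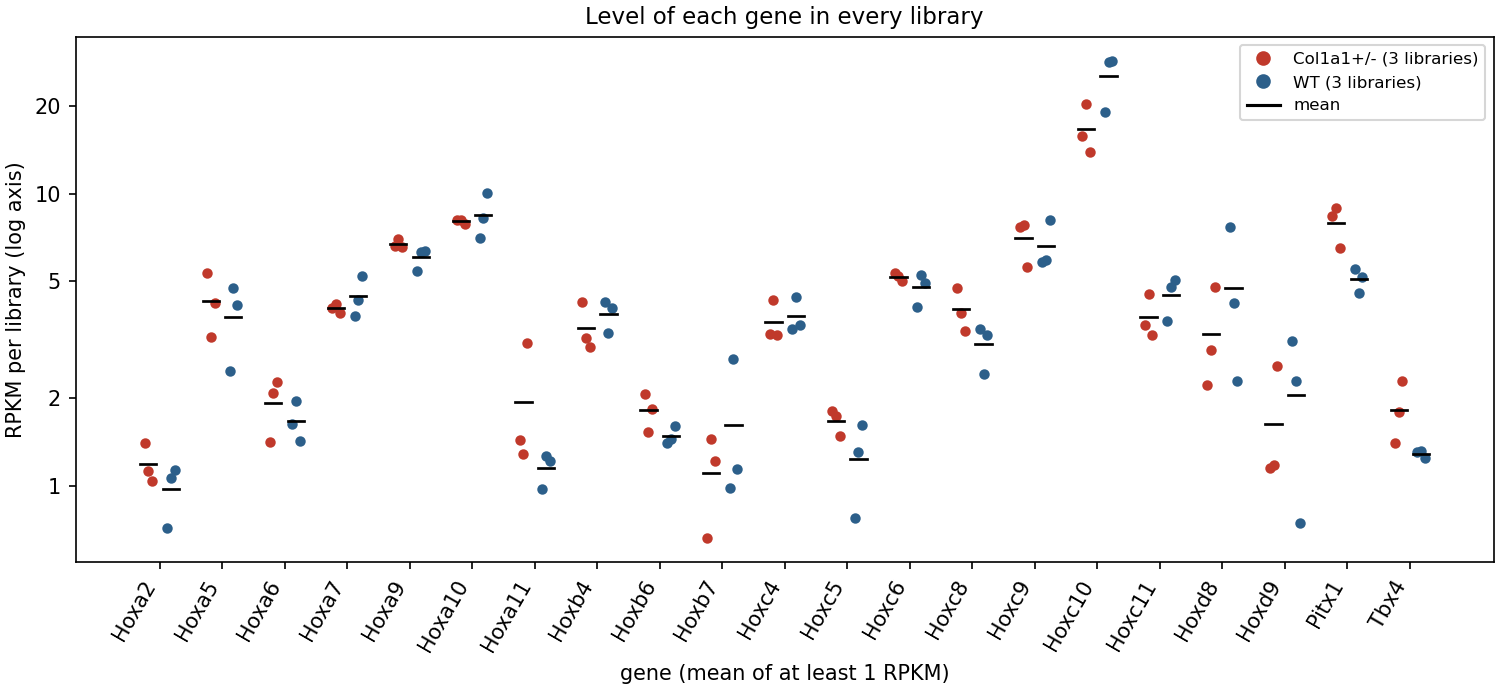
RPKM (log axis) of the 21 genes with a mean of at least 1 RPKM in each of the 6 tibiae, Col1a1+/- points left of WT points, short lines at the genotype means. Hoxa9, Hoxa11, Pitx1 and Tbx4 show no overlap between genotypes, and Hoxd8, Hoxd9 and Hoxb7 show the widest scatter within a genotype.

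By paralogue number the summed level was highest in group 10, at 24.9 ± 3.18 RPKM in Col1a1+/- tibiae and 34.0 ± 6.39 RPKM in WT tibiae (SD, n = 3 each). Group 9 followed at 15.9 ± 0.579 RPKM in Col1a1+/- tibiae and 15.2 ± 0.486 RPKM in WT tibiae. Groups 4 to 8 lay between 5.15 and 8.92 RPKM in mean. Group 11 came to 5.75 ± 0.728 RPKM in Col1a1+/- tibiae and 5.66 ± 0.900 RPKM in WT tibiae, below group 10 and group 9 in every library. Groups 2 and 3 lay between 1.17 and 1.53 RPKM, group 13 at 0.865 RPKM in Col1a1+/- and 0.711 RPKM in WT tibiae, and group 12 at 0.107 RPKM in Col1a1+/- and 0.0224 RPKM in WT tibiae. Groups 9 to 13 together held 54.1% ± 2.09 of the summed Hox level in Col1a1+/- tibiae and 57.9% ± 3.30 in WT tibiae (SD, n = 3 each), ranges that overlapped. The order of groups 4, 6 and 8 was not the same in the genotypes, with group 6 the highest of them in Col1a1+/- tibiae at 8.92 ± 0.158 RPKM and group 4 in WT tibiae at 8.89 ± 0.177 RPKM (SD, n = 3 each). In group 8 the leading gene was Hoxc8 in Col1a1+/- tibiae, at 4.01 ± 0.688 RPKM beside 3.30 ± 1.34 RPKM for Hoxd8 (SD, n = 3 each). In WT tibiae it was Hoxd8, at 4.73 ± 2.75 RPKM beside 3.05 ± 0.555 RPKM for Hoxc8, and neither order was beyond the spread of Hoxd8.

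Group 11 is the group that acts mainly on the limb segment the tibia belongs to. Its 3 genes were used unequally. Hoxc11 was at 3.56, 4.53 and 3.27 RPKM in Col1a1+/- tibiae and 3.65, 4.77 and 5.07 RPKM in WT tibiae. Hoxa11 was at 1.43, 1.28 and 3.09 RPKM in Col1a1+/- tibiae and 0.976, 1.27 and 1.21 RPKM in WT tibiae, with Col1a1+/- replicate 3 far above the other 5. Hoxd11 had 0, 0 and 10 reads in Col1a1+/- tibiae and 0, 3 and 0 reads in WT tibiae. Per kilobase of full exon length, Hoxc11 stood above Hoxa11 in all 6 tibiae, but in Col1a1+/- replicate 3 the 2 levels were close. In that library Hoxa11 had more reads, 200 against 187 for Hoxc11. The exon bases that no other gene covers number 1487 for Hoxa11 and 2021 for Hoxc11. Per kilobase of those bases, Hoxa11 therefore stood above Hoxc11 in Col1a1+/- replicate 3. Hoxa11 shares 35.0% of its exon length with its antisense gene Hoxa11os. The counting used no strand and dropped reads that overlap 2 genes, so part of the Hoxa11 signal is missing and its reads and those of Hoxa11os cannot be told apart in full. Hoxa11os itself was at 0.234, 0.239 and 0.563 RPKM in Col1a1+/- tibiae and at 0.141, 0.259 and 0.158 RPKM in WT tibiae, highest in the same library.

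Because levels of paralogues can only be compared if their reads are told apart, the homeoboxes of groups 10 and 11, the groups with the highest level and with the role in this limb segment, are shown. The homeobox is the stretch of 180 bases that encodes the DNA-binding homeodomain and is the part of a Hox gene most alike between paralogues. Capitals mark the positions where the 3 paralogues of a group are not all the same, 50 in group 10 and 45 in group 11. The sequences are those of GENCODE transcripts on the earlier mouse build GRCm38.
Hoxa10: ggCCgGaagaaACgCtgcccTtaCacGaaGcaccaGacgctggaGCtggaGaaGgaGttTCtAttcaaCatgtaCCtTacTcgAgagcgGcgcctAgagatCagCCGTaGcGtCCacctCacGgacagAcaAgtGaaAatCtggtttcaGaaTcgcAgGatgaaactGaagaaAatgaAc
Hoxc10: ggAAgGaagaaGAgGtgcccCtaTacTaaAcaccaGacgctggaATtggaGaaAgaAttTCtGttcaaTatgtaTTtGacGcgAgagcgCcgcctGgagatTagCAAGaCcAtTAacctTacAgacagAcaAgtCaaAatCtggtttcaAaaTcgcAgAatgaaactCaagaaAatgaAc
Hoxd10: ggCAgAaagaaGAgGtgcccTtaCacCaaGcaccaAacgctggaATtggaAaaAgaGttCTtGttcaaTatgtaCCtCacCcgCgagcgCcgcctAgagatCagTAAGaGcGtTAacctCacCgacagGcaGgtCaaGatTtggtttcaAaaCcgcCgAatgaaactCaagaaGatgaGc
Hoxa11: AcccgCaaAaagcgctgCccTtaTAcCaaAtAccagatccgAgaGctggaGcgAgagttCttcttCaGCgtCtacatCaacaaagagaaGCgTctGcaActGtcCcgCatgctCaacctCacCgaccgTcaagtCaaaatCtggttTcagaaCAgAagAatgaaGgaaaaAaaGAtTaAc
Hoxc11: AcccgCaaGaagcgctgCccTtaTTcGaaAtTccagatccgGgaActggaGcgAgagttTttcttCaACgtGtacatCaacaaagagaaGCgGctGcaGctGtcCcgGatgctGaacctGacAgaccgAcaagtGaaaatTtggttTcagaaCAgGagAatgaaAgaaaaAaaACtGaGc
Hoxd11: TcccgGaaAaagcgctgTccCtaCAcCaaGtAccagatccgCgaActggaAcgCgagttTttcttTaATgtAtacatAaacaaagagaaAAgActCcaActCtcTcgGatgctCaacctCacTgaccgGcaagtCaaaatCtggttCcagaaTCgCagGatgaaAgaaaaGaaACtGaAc
The differences fall along the whole homeobox. Hoxa10 and Hoxc10 shared 80.6% of positions, Hoxa10 and Hoxd10 78.9%, and Hoxc10 and Hoxd10 82.8%. Hoxa11 and Hoxc11 shared 86.7%. Over all 42 pairs of the same number in different clusters the median identity was 80.6% (67.2% to 93.9%), against 60.6% for 527 pairs of different numbers in different clusters. Across whole transcripts, the longest exact run common to any pair of Hox genes of different clusters was 52 bases, with a median of 17 bases for the same number and 14 bases for different numbers. The read length is not given in the sources used here.

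No member passed the test between genotypes. By edgeR, 0 of the 32 tested members were called at an adjusted p under 0.05, where 4.34% of all 18514 tested genes were called, 265 higher (1.43%) and 538 lower (2.91%) in Col1a1+/- tibiae. At an unadjusted p under 0.05 there were 2 members, Pitx1 and Hoxc10, or 6.25% of those tested, beside 22.8% of all tested genes. Limma-voom also called 0 of the members, with 2 at an unadjusted p under 0.05. DESeq2, which called 12.1% of all genes, called Pitx1 higher (adjusted p = 0.00806) and Hoxc10 lower (adjusted p = 0.0427). A p that misses the threshold does not show equal levels, and the SE of the log2 fold change had a median of 0.29 over the tested members, against 0.19 over all tested genes.

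Fold changes of the members lay on both sides of 0, with 17 above and 15 below, where 49.1% of all tested genes were above 0, and a median log2 fold change of 0.07, beside -0.01 over all tested genes. There were 25 tested members within 0.5 of 0 on the log2 scale. The genotypes did not overlap for 4 members, Hoxa9, Hoxa11, Pitx1 and Tbx4, all higher in Col1a1+/- tibiae, and for 0 members in the lower direction. That is 12.5% of the tested members, beside 28.6% of all tested genes (14.0% higher and 14.5% lower) and no test of that difference was made. For Hoxa9 the separation was small, with a log2 fold change of 0.15 ± 0.11 (SE; edgeR adjusted p = 0.447). When scaled on osteocyte genes, which moved the median of all genes to -0.67, the median of the members was -0.55, and 1 member stayed above 0.

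**Figure D3:**
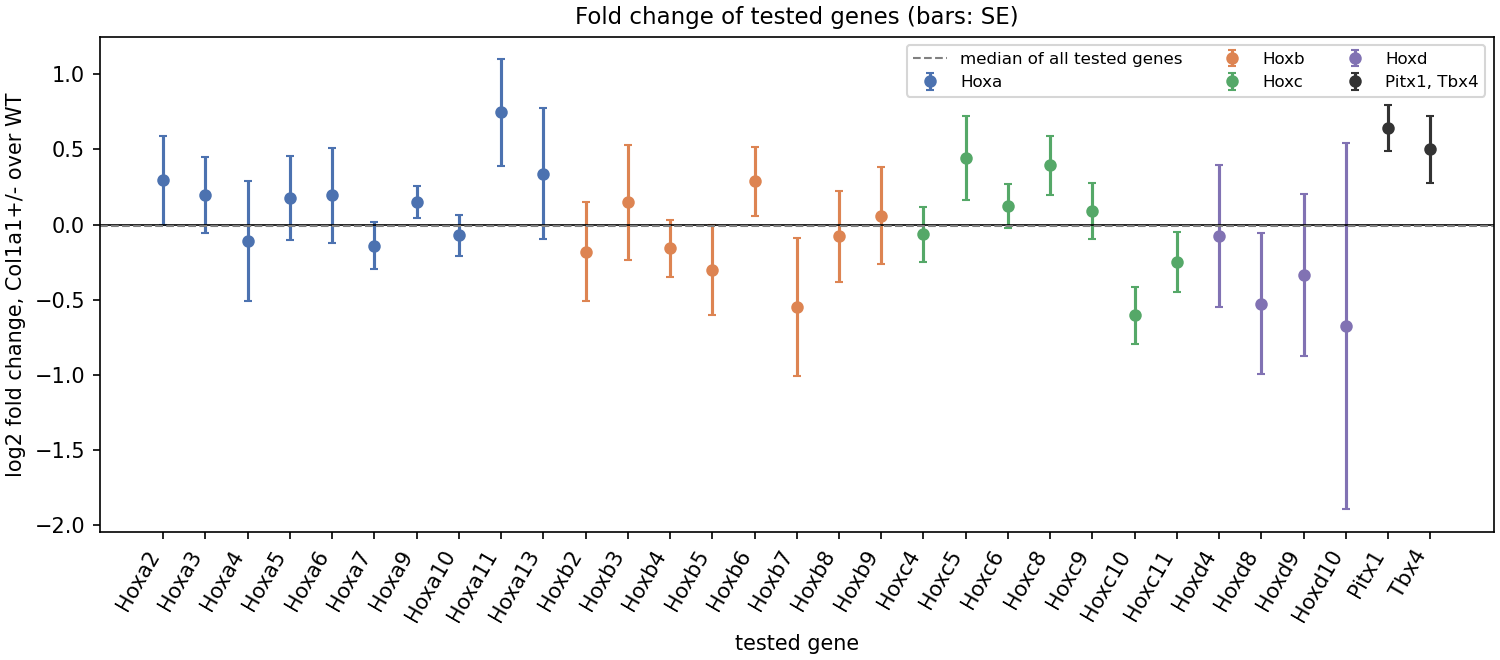
Log2 fold change of the tested genes of paralogue numbers 2 to 13, Pitx1 and Tbx4, Col1a1+/- over WT, with bars of 1 SE, coloured by cluster. Most points lie within 0.5 of 0, with Hoxa11 at 0.75, Pitx1 at 0.64 and Tbx4 at 0.50 at the upper end and Hoxd10 at -0.67 and Hoxc10 at -0.60 at the lower end.

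Hoxc10 was the abundant Hox gene with the lower level in Col1a1+/- tibiae. It averaged 16.7 ± 3.23 RPKM in Col1a1+/- tibiae and 25.3 ± 5.41 RPKM in WT tibiae (SD, n = 3 each). Col1a1+/- replicate 2 lay within the WT range, above WT replicate 1. The log2 fold change was -0.60 ± 0.19 (SE), and its adjusted p of 0.106 by edgeR missed the threshold. Without WT replicate 1 the log2 fold change was -0.74 (edgeR adjusted p = 0.0220), and over every alternative tried its adjusted p ran from 0.0104 to 0.903. Skeletal muscle markers were 1.89% to 3.78% of counts in Col1a1+/- tibiae and 6.06% to 7.63% in WT tibiae, so they moved with Hoxc10. With the muscle marker score as a covariate, the log2 fold change of Hoxc10 was 0.21 and that of its neighbour Hoxc11 0.47, against -0.25 ± 0.20 (SE) for Hoxc11 without it. The score differed between the genotypes themselves, so that fit cannot tell genotype and muscle share apart.

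A ratio of read counts within a library is free of library scaling. The ratio of Hoxc10 reads to those of its paralogue Hoxa10, chosen after the levels were seen, was 1.14, 1.45 and 1.03 in Col1a1+/- tibiae and 1.57, 2.00 and 1.66 in WT tibiae. The ranges did not overlap, and since Hoxc10 was picked for its lower level the ratio is a description with no test. Group 10 as a whole held 28.3% ± 2.68 of the summed Hox level in Col1a1+/- tibiae and 35.3% ± 3.69 in WT tibiae (SD, n = 3 each).

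By cluster, Hoxa held 35.9%, 33.3% and 37.9% of the summed Hox level in Col1a1+/- tibiae and 28.7%, 30.9% and 32.2% in WT tibiae. These shares did not overlap, but the summed Hoxa levels did, at 30.2 to 32.3 RPKM in Col1a1+/- tibiae and 24.5 to 32.4 RPKM in WT tibiae, and a share also moves with the other clusters. There were 8 of the 11 Hoxa genes with fold changes above 0, and the cluster median was 0.20 on the log2 scale. Hoxc held 48.01% ± 5.15 in Col1a1+/- tibiae and 51.4% ± 3.92 in WT tibiae (SD, n = 3 each). Hoxb held 9.95% ± 0.880 in Col1a1+/- tibiae and 9.93% ± 0.401 in WT tibiae, and Hoxd 6.32% ± 3.20 in Col1a1+/- tibiae and 8.08% ± 5.32 in WT tibiae. The median log2 fold change was -0.12 over the 8 tested Hoxb genes, 0.09 over the 7 tested Hoxc genes and -0.43 over the 4 tested Hoxd genes. None of these medians was tested, and none of the genes behind them was called by edgeR.

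Hoxd stood out by its spread between libraries rather than by genotype. The coefficient of variation within genotypes had a median of 54.8% over its 4 tested genes, against 20.6% in Hoxa, 17.1% in Hoxb and 17.7% in Hoxc. Hoxd8 was at 2.21, 2.90 and 4.79 RPKM in Col1a1+/- tibiae and 7.70, 4.21 and 2.29 RPKM in WT tibiae. Hoxd9 was at 1.15, 1.18 and 2.56 RPKM in Col1a1+/- tibiae and 3.12, 2.27 and 0.746 RPKM in WT tibiae. For both genes WT replicate 1 was the highest of the WT libraries and WT replicate 3 the lowest, and Col1a1+/- replicate 3 was the highest of its genotype. Hoxd10 had few reads, 4, 2 and 21 in Col1a1+/- tibiae and 34, 11 and 0 in WT tibiae, and was highest in the same library of each genotype. Hoxd4 was at 0.173, 0.225 and 0.539 RPKM in Col1a1+/- tibiae and 0.368, 0.320 and 0.294 RPKM in WT tibiae, also highest in those libraries. The ratio of Hoxd9 to Hoxd8 reads averaged 0.379 ± 0.0554 in Col1a1+/- tibiae and 0.330 ± 0.0839 in WT tibiae (SD, n = 3 each; exact permutation p = 0.6).

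**Figure D4:**
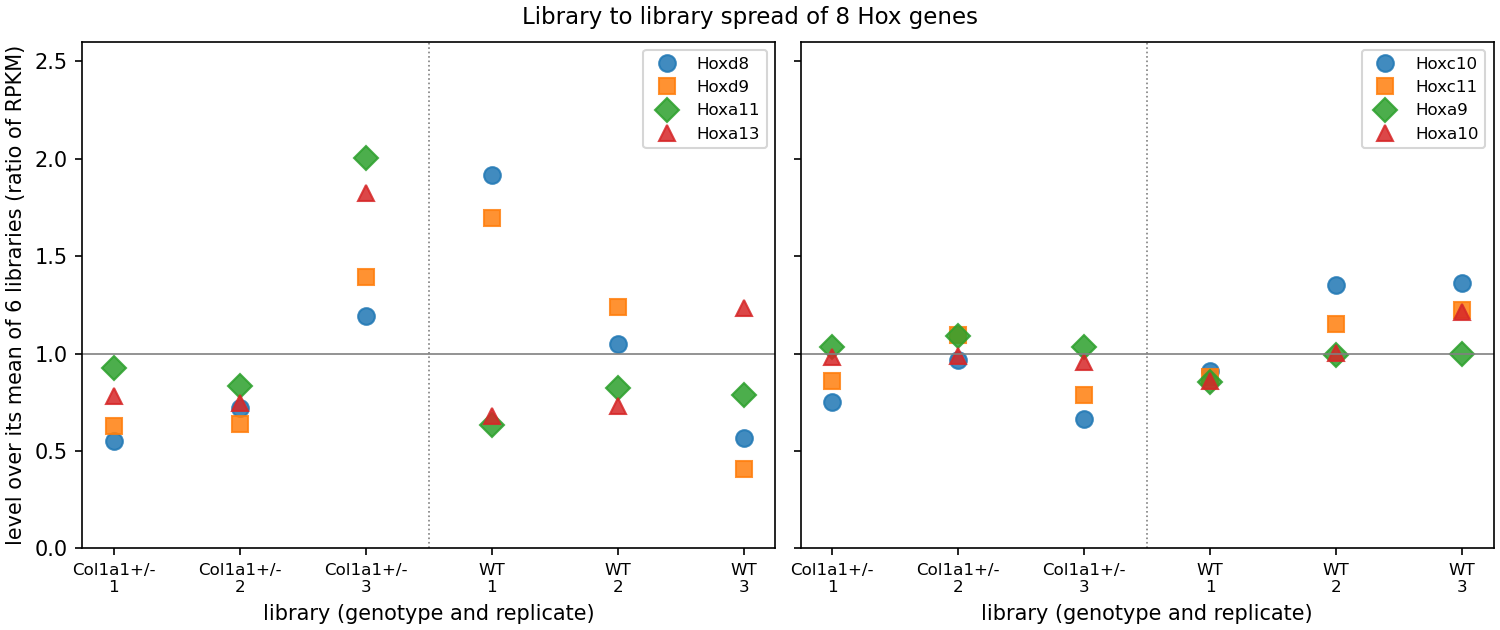
Level of 8 Hox genes in each of the 6 tibiae, as a ratio to the gene's own mean over the 6 tibiae, Col1a1+/- libraries left of WT libraries. Hoxd8 and Hoxd9 are high in Col1a1+/- replicate 3 relative to its genotype and highest in WT replicate 1, and Hoxa11 and Hoxa13 are high in Col1a1+/- replicate 3.

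The differences between genotypes in Hoxd were smaller than that spread. The log2 fold change was -0.53 ± 0.47 for Hoxd8, -0.33 ± 0.54 for Hoxd9 and -0.67 ± 1.22 for Hoxd10 (SE), with edgeR adjusted p-values of 0.571, 0.771 and 0.799. Without WT replicate 1 they were 0.05 for Hoxd8, 0.14 for Hoxd9 and 0.65 for Hoxd10. Hoxd8 was called lower when libraries were scaled on osteocyte genes (log2 fold change -1.33, edgeR adjusted p = 0.00791), a setting under which 16.3% of all genes were called. WT replicate 1 was also the library with the most neutrophil marker counts, 0.590% against 0.141% and 0.146% in the other WT tibiae. Among the Col1a1+/- tibiae, replicate 3, the one highest in Hoxd8, had 0.0998% of counts in neutrophil markers, while replicate 1 had 0.165%. These are single libraries, and the part of neutrophils in the Hoxd values was not tested in either genotype.

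Hoxd8 and Hoxd9 lie next to each other and were highest in the same 3 libraries, so their start regions are shown, as RefSeq gives them on GRCm38.p6, from 250 bases before to 50 bases after the start of the gene, 5′ to 3′ on the plus strand. Hoxd8 is at chr2:74704365-74704664 and Hoxd9 at chr2:74697513-74697812. Capitals mark CpG pairs, the sites of DNA methylation.
Hoxd8: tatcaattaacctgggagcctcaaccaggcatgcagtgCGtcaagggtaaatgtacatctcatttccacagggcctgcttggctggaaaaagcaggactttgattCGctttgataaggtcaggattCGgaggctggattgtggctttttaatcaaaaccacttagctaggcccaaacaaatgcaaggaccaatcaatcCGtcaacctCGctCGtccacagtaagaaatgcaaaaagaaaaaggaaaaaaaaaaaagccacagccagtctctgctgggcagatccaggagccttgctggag
Hoxd9: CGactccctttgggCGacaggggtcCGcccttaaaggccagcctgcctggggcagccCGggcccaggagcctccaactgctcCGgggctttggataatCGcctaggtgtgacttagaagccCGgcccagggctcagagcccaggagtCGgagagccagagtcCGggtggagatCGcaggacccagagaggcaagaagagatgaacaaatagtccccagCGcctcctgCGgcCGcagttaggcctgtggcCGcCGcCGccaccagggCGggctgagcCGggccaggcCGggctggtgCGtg
The Hoxd9 window had 68.3% G and C and a ratio of observed to expected CpG of 0.573, while the Hoxd8 window had 46.7% G and C and a ratio of 0.367. RefSeq windows were found for 23 of the 41 members, 25 windows in all. Their median G and C content was 58.0%, against 52.7% over all 32851 windows of the table, and their median CpG ratio was 0.596, against 0.384. The letters TATAAA, read on both strands, were in 5 of the 25 windows (20%), against 13.6% of all windows, and TGATTNAT, letters bound by Hox and Pbx proteins together, in 2 (8%), against 3.2%. Neither window shown above holds either run of letters, which says nothing of the factors themselves.

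Another pair of genes was high in 1 tibia. Hoxa13 was at 0.549, 0.524 and 1.28 RPKM in Col1a1+/- tibiae and 0.478, 0.513 and 0.866 RPKM in WT tibiae. Together with Hoxa11 and Hoxd11 it was highest in Col1a1+/- replicate 3. The log2 fold change of Hoxa11 was 0.75 ± 0.35 (SE; edgeR adjusted p = 0.250), and it was 0.26 without that library and -0.37 with the muscle score as a covariate. For Hoxb7 it was -0.55 ± 0.46 (SE; edgeR adjusted p = 0.533), and 0.05 without WT replicate 2. Tbx4 was likewise highest in Col1a1+/- replicate 3, while Pitx1 was lowest there among the Col1a1+/- tibiae.

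Hox proteins bind DNA with partner homeodomain proteins of the TALE class, the Pbx, Meis and Pknox families. All 9 of these were tested and 0 were called by edgeR, with 3 at an unadjusted p under 0.05 and a median log2 fold change of 0.08, beside 4.34% called and 22.8% at an unadjusted p under 0.05 over all tested genes. Pbx3 had a log2 fold change of 0.51 (edgeR adjusted p = 0.0786), Meis3 of 0.37 (adjusted p = 0.128) and Pknox2 of -0.70 (adjusted p = 0.0959). DESeq2 called Pbx3 higher (adjusted p = 0.0268) and Pknox2 lower (adjusted p = 0.0333). By edgeR, Pbx3 was called without WT replicate 1 (adjusted p = 0.0450). Pknox2 was called by edgeR without Col1a1+/- replicate 2 (adjusted p = 0.0130), with no filter on low counts (adjusted p = 0.0303) and with osteocyte scaling (adjusted p = 0.00541). Polycomb and trithorax proteins, which keep Hox genes off or on, were all tested, 30 of 30, and 0 were called, with 2 at an unadjusted p under 0.05 and a median of 0.02. Pcgf2 was at 0.38 (edgeR adjusted p = 0.0978) and Phc2 at 0.36 (adjusted p = 0.108) on the log2 scale, while Jarid2 was at -0.19 and Ezh1 at -0.20. Of the noncoding genes of the Hox and Pitx1 loci, 11 of the 15 listed were in the tables and 9 were tested. None of the 9 was called by edgeR, 1 had an unadjusted p under 0.05, and the median was -0.02. The largest differences were in Halr1 (-0.85, adjusted p = 0.167) and Hoxa11os (0.89, adjusted p = 0.327).

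Other regulators of limb patterning gave calls. Of 33 listed, 24 were tested, and 3 rose in Col1a1+/- tibiae by edgeR while 0 fell, with 8 at an unadjusted p under 0.05 and a median log2 fold change of 0.23. Over all tested genes 1.43% were called higher, 2.91% lower, and 22.8% had an unadjusted p under 0.05. Gli3, the transcription factor of the hedgehog pathway, rose by 0.56 on the log2 scale, with 1.55 ± 0.0906 RPKM in Col1a1+/- tibiae and 1.05 ± 0.0374 RPKM in WT tibiae (SD, n = 3 each; edgeR adjusted p = 0.0485). Dlx5, a homeobox gene of bone formation, rose by 0.57 (edgeR adjusted p = 0.0481). Msx2 had 25, 21 and 16 reads in Col1a1+/- tibiae and 4, 2 and 0 reads in WT tibiae (edgeR adjusted p = 0.0458). Dlx5 and Msx2 are also among the 11 listed osteoblast transcription factors, of which 5 rose and 0 fell by edgeR, with 9 at an unadjusted p under 0.05 and a median of 0.57, beside those same shares of all genes. Among the others were Dlx3 (0.82, edgeR adjusted p = 0.0355) and Runx2 (0.47, adjusted p = 0.0426), the master regulator of the osteoblast. Osteoblast markers took 13.4% to 15.4% of counts in Col1a1+/- tibiae and 7.81% to 11.1% in WT tibiae. That list holds Runx2 and Dlx5, but most of its counts came from Col1a1 and Col1a2. Chondrocyte markers, 9 of 9 at 1 RPKM or more, took 0.571% to 0.710% in Col1a1+/- tibiae and 0.252% to 0.348% in WT tibiae. Osteocyte markers took 0.194% to 0.259% in Col1a1+/- tibiae and 0.120% to 0.178% in WT tibiae, and osteoclast markers 0.729% to 0.922% in Col1a1+/- tibiae and 0.490% to 0.599% in WT tibiae. None of these 4 lists overlapped between the genotypes, and their part in the calls was not tested. None of the called genes named here was called when any 1 Col1a1+/- library, WT replicate 2 or WT replicate 3 was left out, nor with the muscle score as a covariate or the replicate block. With osteocyte scaling Msx2 alone of them was called. Gli3 was also not called by limma-voom or with no filter on low counts. Msx2 got no adjusted p from DESeq2 and was not tested under the filter of 1 CPM. On the lower side were Tbx15, a limb and muscle T-box factor, at -0.56 (adjusted p = 0.0871) and Pitx3 at -1.67 (adjusted p = 0.165), neither of them called by edgeR. DESeq2 called both lower (adjusted p = 0.0353 for Tbx15 and 0.0425 for Pitx3), and so did edgeR with osteocyte scaling (0.00723 and 0.000806) and without Col1a1+/- replicate 2 (0.0267 and 0.0236). Tbx15 was called also with no filter on low counts (edgeR adjusted p = 0.0163).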

How the data were processed

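Each library has its own deposited table of whole-number read counts per gene, which were not normalized. Per the file headers, featureCounts 2.0.3 counted reads over exons of Ensembl 107 on GRCm39. The command kept in those headers sets no strand, counts each mate of a pair and drops reads that overlap several genes. Trimmomatic 0.39, HISAT2 2.2.1 and SAMtools 1.20 are named in the submitters' processing notes. Marrow was flushed out before RNA was extracted and libraries came from poly-A selection, per the labels. Of the members, 11 have over 10% of exon bases in common with other genes, and their levels are uncertain. The overlap was largest for Hoxd3 (62.8%), Hoxb3 (53.1%) and Hoxd4 (52.3%). Hoxa11 (35.0%), Hoxa7 (20.4%) and Pitx1 (10.3%) are also among the 11.

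Symbols came from a GENCODE annotation on the earlier build GRCm38, matched by gene identifier (52125 of 56748, 91.9%). Genotypes were compared on the counts with edgeR 4.0.16 in R 4.3.3: filterByExpr, which kept 18514 genes, TMM scaling with factors of 0.892 to 1.10, the robust quasi-likelihood F test, genotype as the only term, two-sided, and Benjamini-Hochberg adjusted p under 0.05 over all tested genes. SE is the absolute log2 fold change over the square root of F. Single values were compared by exact two-sided permutation tests, whose smallest p is 0.1. Other scalings, filters, limma-voom (limma 3.58.1), DESeq2 1.42.0, a replicate block, a muscle covariate and each library left out served as alternatives.

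Values in every library are given for Pitx1, Tbx4, group 11, the 3 highest genes of each cluster, the 3 largest fold changes in each direction and Tbx5, and of each companion list for up to 2 genes with the smallest p in each direction, plus those called. Hoxa13, Hoxa11os and the ratios were chosen after their values were seen. Members and lists were chosen with earlier results of these data known. Values of some single genes are not reported here.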

Additional observations from a re-analysis of the deposited data

How the results depend on the processing

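Relative to 0 members called in either direction by edgeR, 1 member (Pitx1) was called higher with library totals, with no filter on low counts, with a filter of at least 1 CPM in 3 libraries and by DESeq2. For members called lower, scaling on osteocyte genes gave 2 (Hoxc10 and Hoxd8) and DESeq2 gave 1 (Hoxc10). With 1 library left out, 0 to 1 members were called in each direction, the 1 in each case without WT replicate 1. All genes called numbered 803, against 1327 with library totals, 3014 with osteocyte scaling, 1472 with no filter, 2248 by DESeq2, 0 with the muscle score as a covariate (1111 at an unadjusted p under 0.05) and 0 to 1766 with 1 library left out. Osteocyte scaling took the members' median log2 fold change to -0.55, where that of all genes was -0.67.

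With the replicate block, the sample number of the labels as a term, 126 genes were called, 0 of them members, and Pitx1 had an adjusted p of 0.0878 by edgeR. Same-numbered samples did not deviate together (correlations of 0.107, 0.041 and -0.122) and not every sample correlated best with its own number. The labels give no pairing beyond the number, and with 3 samples per genotype this check cannot exclude one.

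Reversed log2 fold changes, none of them past the threshold, were 0.026 for Hoxa10 and 0.0048 for Hoxd4 with library totals. With the muscle covariate they were 0.27 for Hoxa10, -0.37 for Hoxa11, 0.24 for Hoxa7, 0.21 for Hoxc10 and 0.47 for Hoxc11. With osteocyte scaling they were -0.49 for Hoxa9, -0.36 for Hoxb6, -0.49 for Hoxc6, -0.55 for Hoxc9, -0.019 for Pitx1 and -0.18 for Tbx4, and with limma-voom 0.000405 for Hoxd10. Leaving out 1 library gave ranges across 0 of -0.15 to 0.068 for Hoxa10, -0.79 to 0.053 for Hoxb7, -2.29 to 0.65 for Hoxd10, -0.70 to 0.23 for Hoxd4, -0.88 to 0.049 for Hoxd8 and -0.80 to 0.14 for Hoxd9. The ranges also crossed 0 for other members whose fold changes are not given singly: -0.46 to 0.20 for Hoxa4, -0.026 to 0.37 for Hoxa5, -0.18 to 0.66 for Hoxa13, -0.20 to 0.058 for Hoxc4, and likewise for Hoxb2, Hoxb3, Hoxb8 and Hoxb9. Hoxd4 and Hoxd10 gave no value under the filter of 1 CPM.

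Without division by exon length, Hoxa held 43.95% of Hox counts in Col1a1+/- and 39.1% in WT tibiae, Hoxc 40.9% in Col1a1+/- and 43.6% in WT tibiae, Hoxb 9.29% in WT tibiae, and groups 9 to 13 56.8% in Col1a1+/- tibiae, so that on counts Hoxa stood above Hoxc in Col1a1+/- tibiae. With members at 1 RPKM or more only, Hoxb held 7.86% in Col1a1+/- and 7.82% in WT tibiae. Dividing by the exon bases no other gene covers, an alternative chosen after seeing the data, moved no share by more than the spread between libraries. Apart from these changes by construction, the cause of each was not tested.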
